A study of Mus musculus with 8 samples.

Results

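The GIMAP genes (GTPases of immunity-associated proteins) were followed in cultured mouse aortic cells that had been given jasplakinolide, a sponge compound that enters cells, binds actin filaments and stabilises them. The family was taken by gene name, and it was chosen by a rule that drew on measured differences between the groups in these same arrays, that of Gimap4 being among the lowest. All 8 named members, Gimap1, Gimap3, Gimap4, Gimap5, Gimap6, Gimap7, Gimap8 and Gimap9, had a value, among 19938 genes measured in all. Each had 1 probe set, so no choice between probe sets was needed. The RNA came from primary cultures labelled as aortic smooth muscle cells, from C57Bl6 mice and in passage 3 to 4, and was hybridised to 8 Affymetrix arrays. Medium (DMEM), serum (10% fetal calf serum) and time (24 h) were the same throughout, and 4 samples came from cells without and 4 from cells with 100 nM jasplakinolide. The labels do not say whether replicates came from separate cultures or animals, so errors and p-values cover only the spread between the arrays, part of which may be technical.

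GIMAP proteins are small GTPases that share a guanine nucleotide-binding AIG1 domain and mostly sit on intracellular membranes, some through a hydrophobic tail. They are best known from lymphocytes, where loss of several members shortens the life of T cells or B cells. Their transcripts are also known from vascular endothelium, the cell layer that lines the aorta and lies next to its smooth muscle. The genes form a single cluster on mouse chromosome 6.

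Because of that choice, the members' differences between the groups are given as a description, without a test, and support nothing beyond themselves. Values are log2 RMA levels, on which a difference of 1 is a doubling. The brightness of a probe set depends on its probes, so levels of different genes are not ranked against each other as amounts of RNA.

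The median log2 value of an array was 7.30 to 7.39. On the first principal component over all genes, which carried 43.3% of the variance, jasplakinolide 4 (19.4) and control 2 (12.1) lay at one end and the other 6 arrays between -14.3 and 4.71. Over 1015 olfactory receptor genes, which served as dim probe sets, the median signal was 5.05 on each of those arrays, against 4.92 to 4.97 on the other arrays. Results that rest on these arrays are also given without them. The labelled cell type was checked against markers. Acta2, smooth muscle alpha-actin, had a mean of 13.41 ± 0.01 in control samples (SD, n = 4). The endothelial genes Cdh5 (VE-cadherin) and Pecam1 had mean signals of 13.13 and 12.40 log2, each above those of all 1015 olfactory receptor genes. In brightness they stood at percentiles 99.7 and 98.3 of all genes, and Acta2 at 99.9. Defining genes of both cell types were thus bright in cultures labelled as smooth muscle cells, and the check does not settle their make-up. As brightness depends on the probes, these signals do not give the amount of endothelial RNA beside that of smooth muscle. These are bulk samples, in which fewer cells of a type and less RNA per cell cannot be told apart.

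The promoter sequences shown are those of Gimap4, the member with the largest difference, and of Gimap1, Gimap5, Gimap6 and Gimap9, whose levels moved together from array to array as described further on. They are RefSeq windows on build GRCm38.p6, each running from 250 bases before to 50 bases after the annotated start. All 8 members matched that table, Gimap8 with 2 start sites, which gave 9 windows. Those shown lie at chr6:48684328-48684627 (plus strand) for Gimap4, chr6:48738797-48739096 (plus) for Gimap1, chr6:48745947-48746246 (plus) for Gimap5, chr6:48708195-48708494 (minus) for Gimap6 and chr6:48675885-48676184 (plus) for Gimap9. Capitals mark the letters GGAAGT, a core bound by ETS-family factors such as Fli1 and Erg, or their reverse complement.
Gimap4 promoter: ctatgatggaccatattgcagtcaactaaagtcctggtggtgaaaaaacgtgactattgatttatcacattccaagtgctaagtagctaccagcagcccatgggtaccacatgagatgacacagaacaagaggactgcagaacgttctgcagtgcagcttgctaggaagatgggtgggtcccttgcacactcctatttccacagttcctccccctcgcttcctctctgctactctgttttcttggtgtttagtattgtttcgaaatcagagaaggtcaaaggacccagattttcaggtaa
Gimap1 promoter: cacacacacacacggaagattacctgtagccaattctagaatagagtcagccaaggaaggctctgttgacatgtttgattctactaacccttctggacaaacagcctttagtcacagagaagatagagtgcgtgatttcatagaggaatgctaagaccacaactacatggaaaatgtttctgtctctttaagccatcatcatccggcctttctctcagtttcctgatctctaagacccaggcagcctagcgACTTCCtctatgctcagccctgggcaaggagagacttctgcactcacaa
Gimap5 promoter: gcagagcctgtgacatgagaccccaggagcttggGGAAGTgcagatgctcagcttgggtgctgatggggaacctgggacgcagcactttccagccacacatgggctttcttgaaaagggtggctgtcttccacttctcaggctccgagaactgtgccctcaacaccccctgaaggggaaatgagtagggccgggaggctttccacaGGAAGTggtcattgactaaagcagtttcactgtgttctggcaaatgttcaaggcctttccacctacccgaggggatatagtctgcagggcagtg
Gimap6 promoter: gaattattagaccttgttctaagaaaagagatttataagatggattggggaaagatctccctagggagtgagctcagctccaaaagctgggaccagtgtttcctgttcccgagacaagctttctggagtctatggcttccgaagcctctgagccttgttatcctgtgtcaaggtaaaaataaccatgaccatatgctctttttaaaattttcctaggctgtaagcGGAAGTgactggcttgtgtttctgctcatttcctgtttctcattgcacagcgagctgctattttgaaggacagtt
Gimap9 promoter: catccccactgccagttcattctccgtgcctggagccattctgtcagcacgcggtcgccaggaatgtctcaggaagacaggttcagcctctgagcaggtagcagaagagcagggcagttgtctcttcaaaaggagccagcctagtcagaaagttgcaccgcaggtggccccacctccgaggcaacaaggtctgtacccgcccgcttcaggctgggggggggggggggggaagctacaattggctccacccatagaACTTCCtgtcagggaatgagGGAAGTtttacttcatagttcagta

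The ETS core GGAAGT was present on either strand in the windows of 4 members, Gimap1, Gimap5, Gimap6 and Gimap9, and in none of the windows of the other 4. Of 32851 windows of the same length over all genes, 23.8% held it. The motifs searched were chosen after the members' windows had been read, and other spellings of the ETS core gave other members. AGGAAG was present in 7 members, all but Gimap6 (35.4% of all windows), CGGAAG in Gimap1, Gimap6 and Gimap8 (16.9%), and the bare GGAA in all 8 (96.0%). The presence of an ETS core thus does not set 4 members apart from the rest. In Gimap6 it lay at -25 to -20 from the start, in Gimap1 at 2 to 7 on the opposite strand. Gimap5 held it at -216 to -211 and at -44 to -39, and Gimap9 at 6 to 11 on the opposite strand and at 26 to 31. The RUNX core TGTGGT occurred in Gimap1, Gimap4 and Gimap7 (16.8% of all windows), and the KLF core CCACCC in Gimap3, Gimap4, Gimap5, Gimap8 and Gimap9 (31.5%). The letters TATAAA occurred in Gimap6 (13.6%), at -219 to -214 on the opposite strand. Neither the GATA core AGATAA (11.2%) nor the CArG box of serum response factor (1.6%) was found in any of the 9 windows. No match of GGAAGT or of these other motifs shared a base with a match of another, and a match is a description of letters, not a bound site.

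Across the family, 6 of the 8 members had a lower mean with jasplakinolide, whereas 43.6% of all genes did. The median log2 difference (jasplakinolide minus control) was -0.19, against 0.01 over all genes. In 4 members, Gimap1, Gimap4, Gimap5 and Gimap6, every jasplakinolide array lay below every control array. Over all genes, 3.29% had groups that did not overlap in that direction, and so did 8 of the 18 endothelial markers described further on. In the limma fit over all genes, 1 member, Gimap4, lay past an adjusted p of 0.05, where 0.336% of genes did so on the lower side and 0.772% in either direction. As this contrast led to the choice of the family, nothing is read from these counts.

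**Figure D1:**
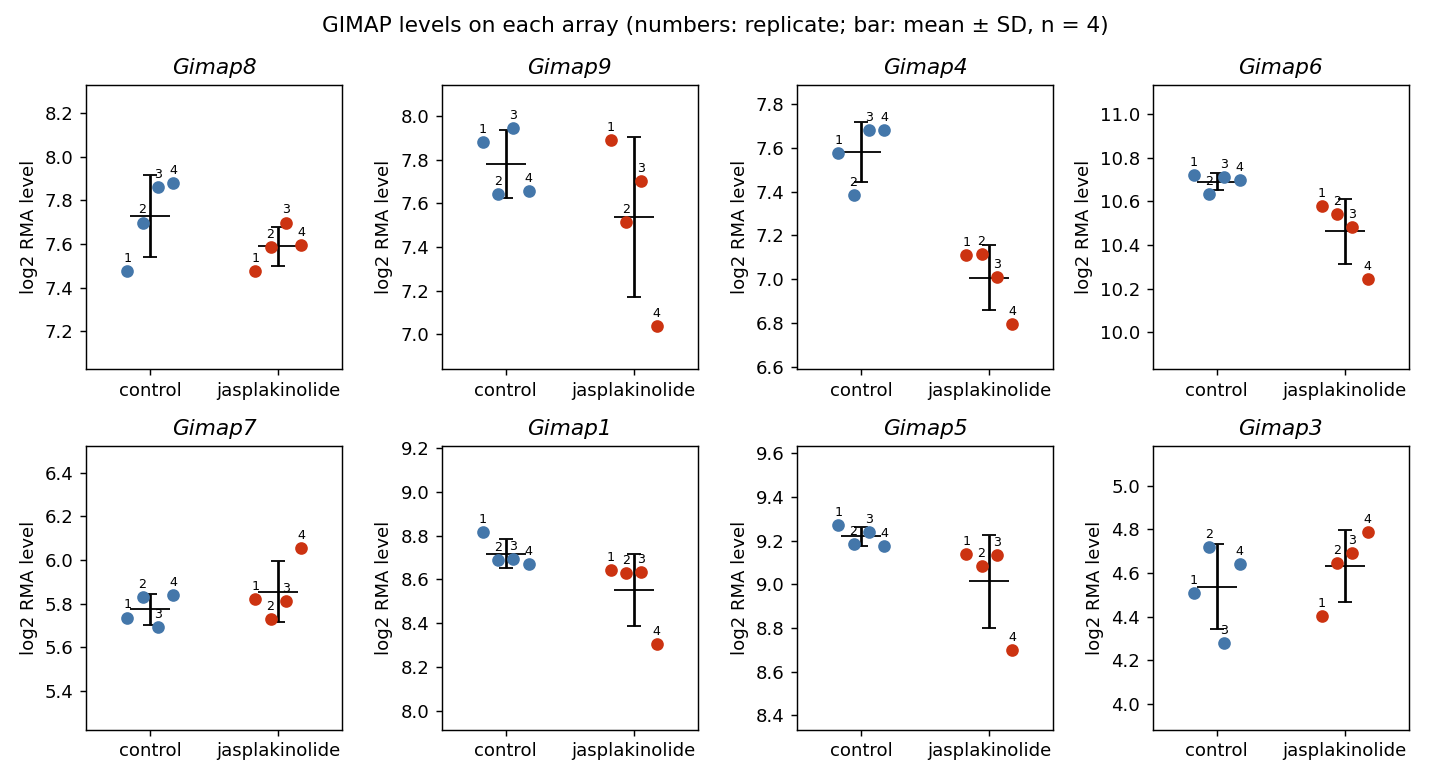
Log2 RMA level (vertical axis, each panel spanning 1.3 units) of the 8 GIMAP genes on the 4 control (blue) and 4 jasplakinolide (red) arrays, with replicate numbers, group means and SD. Gimap4 shows the widest gap between groups, and the lowest red points of Gimap1, Gimap5, Gimap6 and Gimap9 are jasplakinolide 4.

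Gimap4, a regulator of T cell survival and cytokine release, differed most. Its levels were 7.58, 7.39, 7.68 and 7.68 log2 on control arrays 1 to 4 and 7.11, 7.11, 7.01 and 6.80 on jasplakinolide arrays 1 to 4. Control 2 was the lowest control and jasplakinolide 4 the lowest of all, and the groups did not overlap. The mean went from 7.58 ± 0.14 to 7.01 ± 0.15 (SD, n = 4 each), a log2 difference of -0.57 ± 0.09 (SE), or 1.49-fold lower. It ranked 20 among the 19938 genes ordered from the lowest difference. The difference was -0.50 without jasplakinolide 4 and -0.57 without that array and control 2. Gimap4 no longer lay past the threshold when control 1, 3 or 4 or jasplakinolide 1, 2 or 3 was left out, with differences of -0.61 to -0.54 in those 6 fits. It remained past it without control 2 or without jasplakinolide 4.

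Gimap1 and Gimap5 are membrane-anchored members needed for the survival of peripheral lymphocytes. Gimap1 lay at 8.82, 8.69, 8.69 and 8.67 log2 on control arrays 1 to 4 and at 8.65, 8.63, 8.63 and 8.31 on jasplakinolide arrays 1 to 4. The groups did not overlap, but the gap between the lowest control and jasplakinolide 1 to 3 was narrow. The difference was -0.16 ± 0.08 (SE), and -0.08 without jasplakinolide 4. Gimap5 lay at 9.27, 9.19, 9.24 and 9.18 log2 in control and at 9.14, 9.09, 9.14 and 8.70 with jasplakinolide. Again jasplakinolide 4 stood far below the other 3 treated arrays, which were just under the lowest control. Its difference of -0.21 ± 0.09 (SE) became -0.10 without that array. Gimap3 is the close mouse relative of Gimap5, studied for its effect on mitochondrial DNA inheritance. It ranged from 4.28 to 4.72 in control and from 4.40 to 4.79 with jasplakinolide, and the groups overlapped (0.10 ± 0.11, SE; 0.04 without jasplakinolide 4, 0.01 without control 3, 0.16 without control 2 and 0.17 without jasplakinolide 1). Its mean signal was above that of only 34.3% of olfactory receptor genes and so near the dim end of the arrays.

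Gimap6, which lacks a membrane anchor and binds the autophagy protein GABARAPL2, lay at 10.72, 10.63, 10.71 and 10.70 log2 on control arrays 1 to 4. On jasplakinolide arrays 1 to 4 it lay at 10.58, 10.54, 10.48 and 10.24. The groups did not overlap, and the treated arrays spread more widely (SD 0.15) than the controls (SD 0.04). The difference was -0.23 ± 0.07 (SE), 1.17-fold lower, and -0.16 without jasplakinolide 4.

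The remaining members overlapped between groups. Gimap9 lay at 7.88, 7.64, 7.95 and 7.65 log2 in control and at 7.89, 7.51, 7.70 and 7.04 with jasplakinolide. Its difference of -0.25 ± 0.16 (SE) became -0.08 without jasplakinolide 4. Gimap8, the long member with several GTPase domains, ranged from 7.48 to 7.88 in control and from 7.48 to 7.70 with jasplakinolide (-0.14 ± 0.09, SE). Without control 1 its difference was -0.22 and its groups no longer overlapped, and without control 4 it was -0.09. Gimap7, a GTPase that is activated by forming dimers, ranged from 5.69 to 5.84 and from 5.73 to 6.06 (0.08 ± 0.07, SE), a difference of 0.01 without jasplakinolide 4. Its highest value was on jasplakinolide 4, the array on which Gimap1, Gimap5, Gimap6 and Gimap9 were lowest. Gimap7 was dim, above 77.5% of olfactory receptor genes.

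In the order of the reference gene table (RefSeq, GRCm38.p6) the cluster reads Gimap8, Gimap9, Gimap4, Gimap6, Gimap7, Gimap1, Gimap5 and Gimap3. It lies between Zfp775, a zinc finger gene, and Tmem176b, a membrane protein gene. Gimap4 differed most and its neighbours Gimap9 and Gimap6 by -0.25 and -0.23, while Gimap7, between Gimap6 and Gimap1, lay above 0. None of the 8 flanking genes lay past the threshold (limma, adjusted p 0.625 to 0.991), and 0 had an unadjusted p under 0.05. On the Gimap8 side Rarres2, which encodes the adipokine chemerin, Gm5111, Repin1 and Zfp775 differed by -0.01 to 0.04. On the Gimap3 side Tmem176b differed by -0.10 ± 0.05 (SE), Tmem176a by -0.10 ± 0.07, Gm7932 by 0.14 ± 0.09 and Aoc1, a diamine oxidase gene, by -0.02 ± 0.13. Tmem176b was the only flanking gene whose groups did not overlap.

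**Figure D2:**
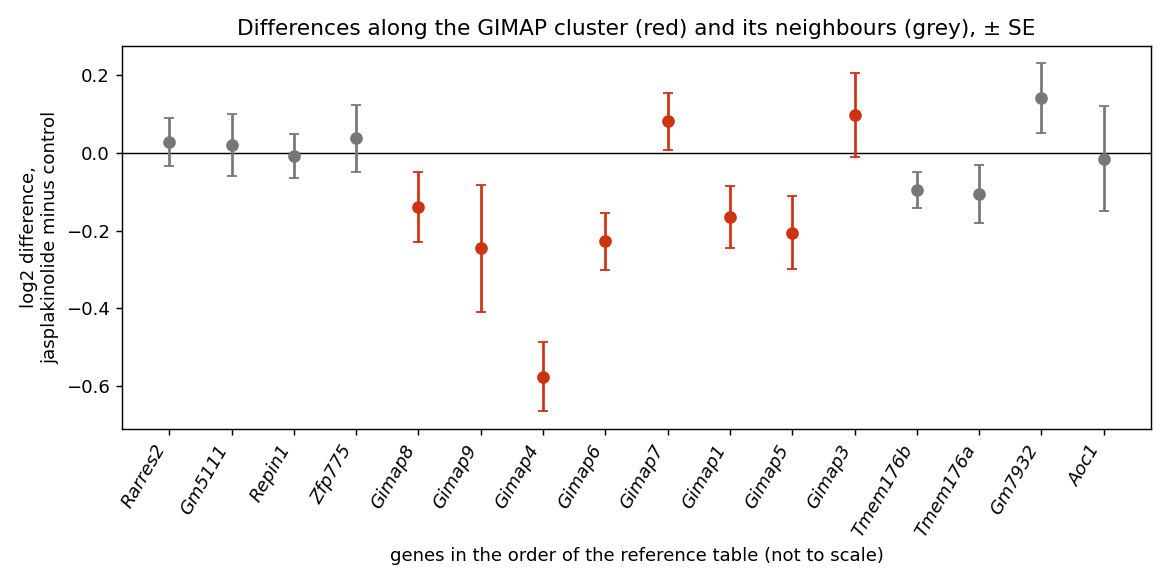
Log2 difference, jasplakinolide minus control, with limma's SE for each GIMAP gene (red) and the 4 neighbouring genes on each side (grey), in the order of the reference table and not to scale. Gimap4 lies at -0.57 while Gimap7 and Gimap3 within the cluster, and the neighbours on the Gimap8 side, lie near or just above 0.

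How the members varied within a group does not depend on the contrast between groups. Each array's deviation from its group mean was compared between members over the 8 arrays. These correlations are descriptions, since the 8 points share arrays and carry the array effects given above. Gimap1, Gimap5, Gimap6 and Gimap9 deviated together, with Pearson's r of 0.86 to 0.97 and Spearman's rho of 0.74 to 0.90 over their 6 pairs. The closest pair was Gimap1 and Gimap5, which lie next to each other (r = 0.97). Without jasplakinolide 4 the 6 pairs had r of 0.60 to 0.87, and without control 2 as well 0.49 to 0.84. In these and all later correlations without those arrays, the deviations were still taken from the means of the full groups. The arrays left out therefore still shape the values, which do not show whether the members move together on the other arrays alone. The members of the group were singled out after the correlations had been seen.

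Gimap7 deviated in the opposite direction, with r of -0.88 to -0.80 against those 4 genes, and -0.49 to -0.27 without the outlying pair of arrays. Gimap3 also deviated opposite to those 4 genes, with r from -0.77 (Gimap9) to -0.44 (Gimap1). Without the outlying pair its r was -0.75 (Gimap9) to -0.02 (Gimap1). Gimap7 and Gimap3 are dim probe sets, and each was highest on jasplakinolide 4, where the olfactory receptor median was also raised (5.05). The part of that raised dim signal in these r values was not tested. Gimap4 followed Gimap6 (r = 0.85), but without the outlying pair r was 0.38, and with Gimap1 it turned from 0.63 to -0.51. Gimap8 had r between -0.34 and 0.18 against the other 7 members, and between -0.75 and 0.39 without the outlying pair. Its r with Gimap1 was below 0 throughout (r = -0.34, rho = -0.62, and r = -0.75 without that pair). Its lowest control value was control 1, the array on which Gimap1 and Gimap5 were highest among controls. In the jasplakinolide group, replicate 4 lay 0.25 below the mean for Gimap1, 0.32 below for Gimap5, 0.22 below for Gimap6 and 0.50 below for Gimap9.

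**Figure D3:**
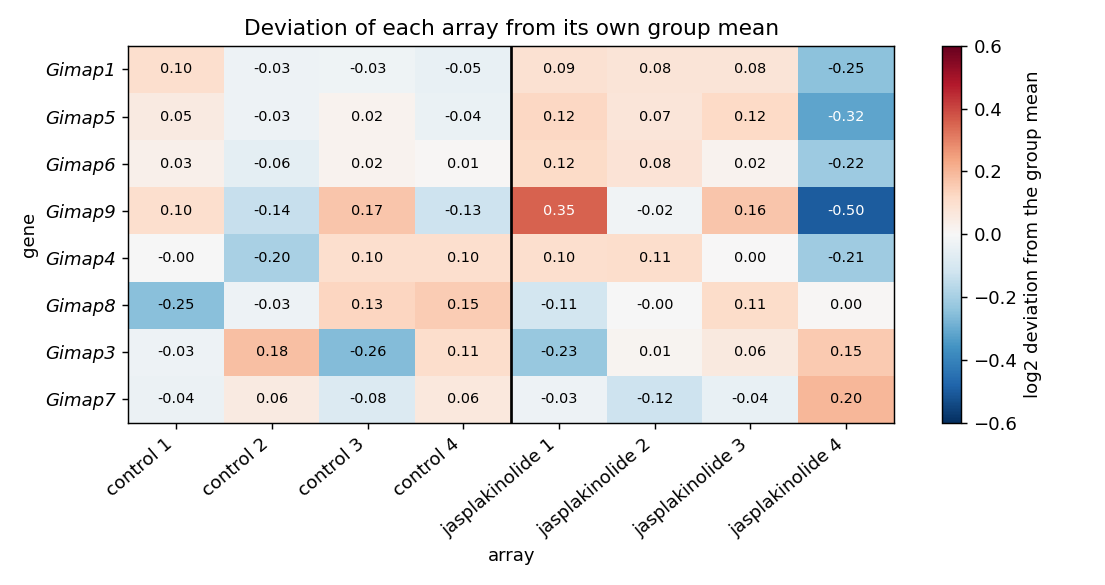
Deviation of each array from its own group mean, in log2 units, for the 8 GIMAP genes (rows) on the control and jasplakinolide arrays (columns). Jasplakinolide 4 is low for Gimap1, Gimap5, Gimap6, Gimap9 and Gimap4 and high for Gimap3 and Gimap7.

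The genes outside the family most like it were sought by the correlation of within-group deviations with the mean standardised deviation of the members, over the 8 arrays. That mean took in all 8 members, also Gimap7 and Gimap3, which deviated opposite to Gimap1, Gimap5, Gimap6 and Gimap9. Likeness to it is therefore not likeness to each member. The 5 closest were Hgs (r = 0.98), an endosomal sorting protein gene, Os9 (0.98), a lectin of endoplasmic reticulum quality control, the kinase gene Nuak2 (0.97), Ctps (0.97), a CTP synthase gene, and Bahcc1 (0.97). Without control 2 and jasplakinolide 4, but with deviations still from the means of the full groups, their r lay between 0.57 and 0.90. None of the 5 then stayed among the closest 5. With Spearman's rho, or with the group means kept, 1 of the 5 stayed. The list of closest genes changed both with these arrays and with the measure of likeness.

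Of 18 endothelial markers 16 had a lower mean with jasplakinolide, and 1, Robo4, a guidance receptor gene of endothelial cells, fell in the fit over all genes (0.336% of genes on the lower side). Robo4 differed by -0.41 ± 0.06 (SE; limma, adjusted p = 0.0170), but it did not pass without control 3, control 4, jasplakinolide 1 or jasplakinolide 2 (adjusted p 0.0580 to 0.0729; 0.00304 to 0.0729 over all 18 alternatives). Without control 1 the count was 2, Robo4 and Sox18. With the replicate number as a block 4 markers fell, where 1.08% of all genes did: Robo4, the receptor genes Kdr and Tek, and the transcription factor gene Sox18, Kdr and Tek being named after their values were seen. Over 18 alternatives limma's adjusted p of Kdr was 0.0424 to 0.602, with 1 under the threshold. That of Tek was 0.0227 to 0.383, with 3 under it. The list's median difference was -0.14, and -0.08 without jasplakinolide 4. The mean log2 level of the list ran from 10.87 to 10.91 on the control arrays and from 10.65 to 10.77 on the treated arrays, lowest on jasplakinolide 4, and the groups did not overlap. Of its defining genes, Cdh5 differed by -0.08 ± 0.05 and Pecam1 by -0.16 ± 0.05 (SE). Neither passed the test, although the groups of both did not overlap, each being lower with jasplakinolide. Pecam1 passed in 1 of 18 alternatives, the robust prior that follows intensity (adjusted p = 0.0456; 0.0456 to 0.566 over the 18).

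Each member was then expressed relative to the endothelial marker mean of the same array. As that mean was itself lower on the treated arrays, subtracting it raises the difference of any gene. The share of all genes whose groups do not overlap after the same subtraction was not computed. The difference of Gimap4 was then -0.42, with levels of -3.51 to -3.19 on the control arrays and -3.85 to -3.64 on the treated arrays, and the groups still did not overlap. Against Cdh5 alone it was -0.50, and against Pecam1 alone -0.41, again without overlap. Without jasplakinolide 4 it was -0.38. For Gimap1 the relative difference was -0.01, for Gimap5 -0.05, for Gimap6 -0.08 and for Gimap9 -0.09, and their groups overlapped. Without jasplakinolide 4 these were 0.04, 0.02, -0.03 and 0.04. Relative to Cdh5 alone the differences were larger, at -0.09 for Gimap1, -0.13 for Gimap5 and -0.17 for Gimap9, with overlap, and -0.15 for Gimap6, without overlap. Relative to Pecam1 alone they were 0.00 for Gimap1, -0.04 for Gimap5, -0.06 for Gimap6 and -0.08 for Gimap9, all with overlap. The relative difference of Gimap7 was 0.23 without overlap, and 0.13 without jasplakinolide 4. Against Cdh5 alone (0.16) and against Pecam1 alone (0.24) the groups of Gimap7 overlapped. For Gimap3 it was 0.25 with overlap (0.17 without jasplakinolide 4), and both are dim probe sets whose own levels overlapped. The deviations within groups were also set against those of the endothelial mean over the 8 arrays. Pearson's r was 0.91 for Gimap5, 0.84 for Gimap9, 0.84 for Gimap6, 0.80 for Gimap1 and 0.60 for Gimap4, with rho of 0.79, 0.76, 0.55, 0.45 and 0.52. Without the outlying pair r was 0.70, 0.61, 0.46, 0.23 and 0.22 in the same order, so that Gimap4 then lay beside Gimap1. These deviations too were still taken from the means of the full groups, which the outlying pair shapes. The values thus do not show whether the members follow the endothelial mean on the other arrays alone. For Gimap8 r was 0.14, for Gimap3 -0.49 and for Gimap7 -0.82.

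**Figure D4:**
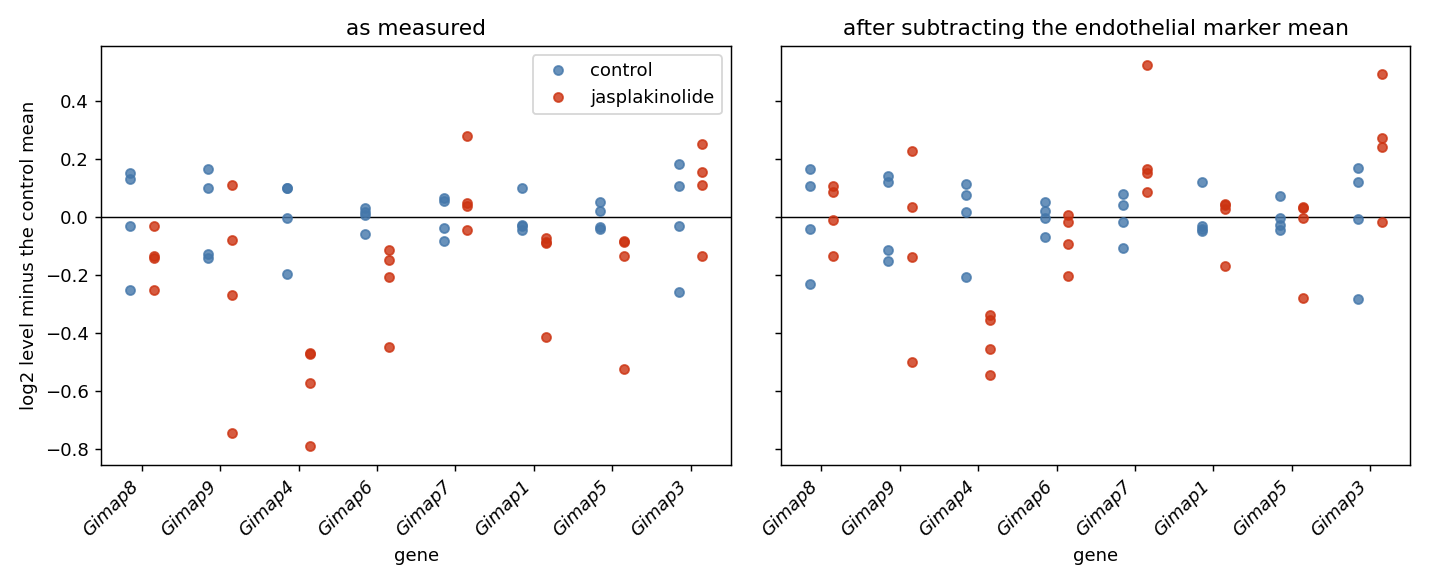
Log2 levels of the 8 GIMAP genes on each control (blue) and jasplakinolide (red) array minus the control mean, as measured (left) and after the mean of 18 endothelial markers on the same array was subtracted (right). Gimap4 keeps its groups apart on the right, whereas those of Gimap1, Gimap5 and Gimap6 come to overlap.

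Lymphocytes are the cells in which GIMAP genes are best known. Of 14 measured markers of T and NK cells, 1 had a lower mean with jasplakinolide and none passed the test. Their mean log2 level was 6.20 to 6.48 on the control arrays and 6.31 to 6.48 on the treated arrays. Cd3e, a subunit of the T cell receptor complex, differed by 0.04 ± 0.07, Cd2 by 0.16 ± 0.10 and Cd4 by 0.13 ± 0.07 (SE). None of 5 B cell markers passed (Blk 0.12 ± 0.11, Ms4a1 0.06 ± 0.10, SE), and their mean level was 6.02 to 6.36 in control and 6.03 to 6.27 with jasplakinolide. Array values have no true 0, so these levels do not show whether such cells were present.

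Among other cell types, none of 10 macrophage markers passed (Cd68 -0.24 ± 0.07, Lyz2 0.17 ± 0.05, SE; list mean 7.73 to 7.83 in control and 7.75 to 7.83 with jasplakinolide), and the pan-leukocyte gene Ptprc differed by -0.04 ± 0.05. With the replicate block Cd68 fell (adjusted p = 0.0424; 0.0424 to 0.479 over 18 alternatives). None of 4 platelet markers passed (Pf4 0.18 ± 0.09, Itgb3 0.12 ± 0.05, SE; 8.31 to 8.42 and 8.37 to 8.48). None of 6 fibroblast markers passed (Dcn -0.54 ± 0.12, Dpt -0.46 ± 0.11, SE; 7.45 to 7.65 and 7.33 to 7.42). With the block Dcn fell (adjusted p = 0.0134; 0.0126 to 0.291 over 18 alternatives). Of 8 smooth muscle markers 5 rose, where 0.436% of genes did, and the largest rises were those of Cnn1 (1.34 ± 0.07, SE), Myh11 (0.81 ± 0.08) and Lmod1 (0.68 ± 0.07). Tagln rose by 0.55 ± 0.04 and Acta2 by 0.25 ± 0.04 (SE). The count was 4 without any 1 array, as Acta2 then missed the threshold (adjusted p 0.0593 to 0.128). The part of these cell types in the GIMAP levels was not tested.

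Genes of the BCL2, ATG8 and GSK3 families, which have been linked to GIMAP proteins, showed small differences. GIMAP3, GIMAP4 and GIMAP5 have been linked to the BCL2 family of apoptosis regulators, and none of its 10 measured genes passed the test (median 0.01). The largest differences were those of the pro-apoptotic genes Bcl2l11 (-0.14 ± 0.10, SE) and Bak1 (0.11 ± 0.05). None of 7 genes of the ATG8 and GSK3 families passed either (median 0.04; Gabarapl1 0.07 ± 0.05, Gsk3b 0.06 ± 0.05, SE). These encode partners of GIMAP6 in autophagy and a kinase that GIMAP5 restrains in T cells. Among 3 measured genes of the immunity-related p47 GTPases, another family of defence GTPases, none passed. Iigp1 differed by -0.44 ± 0.13 (SE), falling with the replicate block (adjusted p = 0.0431; 0.0431 to 0.524 over 18 alternatives), and Irgm1 by -0.04 ± 0.07.

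None of 15 transcription factor genes of endothelial and lymphoid cells passed (median -0.03). Sox18, an endothelial factor, differed by -0.45 ± 0.10 and the ETS factor Fli1 by -0.29 ± 0.06 (SE; limma, adjusted p = 0.0877 and 0.0548). Both fell with the replicate block (adjusted p = 0.0424 and 0.0349). Over 18 alternatives the adjusted p of Sox18 was 0.0146 to 0.287, with 5 under the threshold (0.0228 without control 1), and that of Fli1 0.0120 to 0.172, with 7 under it. The ETS factor Erg, also on the endothelial list, differed by -0.01 ± 0.04. Whether any of these factors acts on the GIMAP promoters was not measured.

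Where no gene of a list passed in the limma fit, the number with an unadjusted p under 0.05 was 0 of 14 T and NK cell markers, 0 of 5 B cell markers, 3 of 10 macrophage markers, 1 of 4 platelet markers and 2 of 6 fibroblast markers. It was 0 of 10 BCL2 family genes, 0 of 7 ATG8 and GSK3 genes, 1 of 3 p47 GTPase genes and 3 of 15 transcription factor genes. The share of all genes under that cut was not computed, here or for the flanking genes, so nothing is read from these counts.

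**Figure D5:**
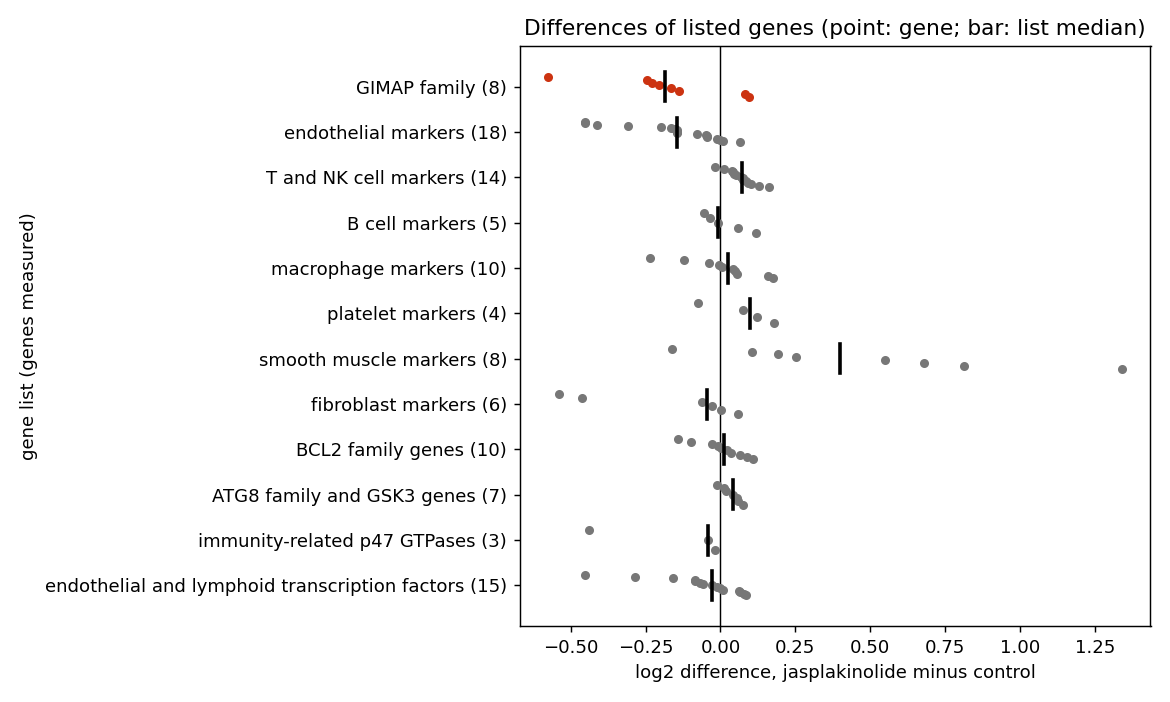
Log2 difference, jasplakinolide minus control, of each measured gene (point) of the GIMAP family (red) and of the lists of cell type markers and other genes (grey), with list medians (bars). The GIMAP and endothelial lists have medians of -0.19 and -0.14, the smooth muscle list 0.40, and the T and NK cell list 0.07.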

How the data were processed

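Per the submitters' processing notes, the authors used RMA in Affymetrix Expression Console, and the values they deposited for 35556 probe sets on 8 arrays have the range of log2 levels (2.29 to 14.2). Versions and genome build: not given in the sources used here. By the platform annotation 21789 probe sets carry 1 gene symbol and were used; 1621 with several and 12146 without one were not. Gene identifiers of 21698 matched the reference table, which changed 0 symbols. Of the probe sets of a gene (999 genes had several) the brightest on average represented it, giving 19938 genes. Dim probe sets were kept.

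The test was limma 3.58.1 under R 4.3.3 (lmFit, eBayes, two-sided, 6 residual and 3.43 prior degrees of freedom), p-values were adjusted by Benjamini-Hochberg over the whole table, and the threshold was 0.05. The code was tested on simulated data with independent normal errors. There 24% of changes of 0.25 log2 and 77.2% of changes of 0.5 passed the threshold. A gene that did not pass may therefore still differ. Differences carry limma's SE, group means the SD. "Rose" and "fell" are used of genes past the threshold. With 4 arrays a group, precision is limited by their number.

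The members, the lists and the alternatives were chosen with earlier results of these data known. By the rule for named genes, the text names all members, the 5 genes most like them, 4 neighbours on each side, Cdh5, Pecam1, Cd3e, Ptprc and Acta2, and up to 3 members per list past the threshold or the 2 with the largest difference; Erg, Kdr, Tek and Tagln were added after their values were seen. Listed genes that had no value were not analysed here. Promoter windows are RefSeq's. Plots were made in Python 3.11.15 with matplotlib 3.10.9.

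Both groups carry replicate numbers 1 to 4. Over all genes, the deviations from the group mean of arrays with the same number correlated at 0.24 to 0.56, and those of arrays with different numbers at -0.62 to 0.52 (highest for control 2 with jasplakinolide 4). Each same-number value was above 0.1, but so were some different-number values. Control 2 correlated more with jasplakinolide 4 (0.52) than with jasplakinolide 2 (0.24). Neither the labels nor these values settle whether the numbers pair the samples. The replicate number was therefore used as a block only in an alternative fit. Main results come from the fit without that block.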

Additional observations from a re-analysis of the deposited data

Results flagged for a closer look

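Of the 16 sets of 4 values (8 members in each group), 3 had a sample set apart from the rest by Dixon's test of the gap over the range; chance flags about 1 in 20 such sets. On jasplakinolide 4 Gimap1 lay at 8.307 log2, against 8.63 to 8.65 on the other treated arrays, and Gimap5 at 8.698, against 9.09 to 9.14. On control 1 Gimap1 lay at 8.818, against 8.67 to 8.69 on the other controls. Jasplakinolide 4 also lay farthest out on the first principal component over all genes (19.4) and had the lowest endothelial marker mean (10.65); their part in these values was not tested.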

How the results depend on the processing

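The difference of every member kept its direction under all alternatives run for it (16 to 18 each), and none moved by more than the spread between replicates. For Gimap4 it ranged from -0.64 to -0.50, and the family's median from -0.22 to -0.09, the latter without jasplakinolide 4. The number of members past the threshold (1, Gimap4) was 0 at an adjusted p under 0.01 and among the brighter 50% of genes, which no longer include Gimap4, and 0 to 1 with 1 array left out. The 154 genes changed over the whole table became 377 with the replicate block (149 shared; 215 lower and 162 higher), 296 among the brighter 50% of genes, 276 after a second quantile normalization (145 lower and 131 higher), 299 after cyclic loess (162 and 137), 358 with a robust prior that follows intensity, 457 with array weights, 45 at an adjusted p under 0.01, and 43 to 150 with 1 array left out. In the main fit 67 were lower and 87 higher, and after median centring 34 and 69. The replicate block changed the call of no member, but Gimap4 then lay only just past the threshold (limma, adjusted p = 0.0495, against 0.0257 in the main fit). Of the 5 genes most like the family, 1 stayed among the closest 5 with group means kept, with Spearman's rho or without jasplakinolide 4, and 0 without control 2 and jasplakinolide 4; leaving out these arrays there was chosen after seeing the data. Every probe set on its own was not run, since each member has 1. The cause of these shifts was not tested.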
